A study of Mus musculus with 3 samples.

Results

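The cells described here are 320 fetal mouse germ cells picked for high RNA of 5 genes, Gm26699, Abhd18, D3Ertd751e, Slc25a42 and Kcnq1ot1. A score was computed for every cell as the mean natural-log value of these 5 genes, and the 200 cells of highest score at E14.5 and the 120 of highest score at E16.5 were taken. They made up 2.20% of 9075 cells at E14.5 and 2.24% of 5363 cells at E16.5, out of 19144 cells in all. They are called high-score cells below, and the remaining 8875 and 5243 cells of the 2 libraries are called other cells. The mice were of the C57BL/6 strain, and ovarian cells of the fetuses were sorted for EGFP under Oct4 control, a reporter of pluripotent and early germ cells. There was 1 library of RNA 3' ends for each of 3 stages, E12.5, E14.5 and E16.5, and all cells carried the reporter with no other allele or agent named. The number of embryos behind each library was not given in the sources used here.

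Between these stages female germ cells stop dividing, switch off pluripotency genes and enter meiotic prophase, in which homologous chromosomes pair, break their DNA under the control of SPO11 and repair it by recombination while the synaptonemal complex forms between them. STRA8 is the factor that starts this programme in response to retinoic acid. Kcnq1ot1 is a long non-coding RNA that is kept in the nucleus, is read antisense to Kcnq1 from the paternal allele and silences imprinted genes around it.

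Because cells were picked by values in the same libraries, every difference between high-score and other cells of a stage is a description and carries no test. With 1 library per stage there was also no replicate to set it against, so intervals below are exact Poisson or binomial 95% intervals that cover counting error only. Levels are counts per 1000000 (CPM), the UMIs of a gene scaled to that total after summing the cells of a group, where a UMI marks 1 captured RNA molecule. A gene was counted as measured when its mean over the 2 groups, weighted equally, was at least 25 CPM, and as higher or lower when the groups differed by at least 1.5-fold. The scoring genes were left out of all such counts.

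At E14.5 the score reached 1.63 in the top cell and had a median of 0.977 over the high-score cells, against 0.221 over the other cells, of which 1556 had none of the 5 RNAs. The last cell taken had 0.876 and the first left out had 0.873. At E16.5 the top cell had 2.19 and the median was 1.05 in high-score cells, against 0.270 in other cells, and the last cell taken and the first left out had 0.964 and 0.962. The scores thus ran on without a gap at both limits. No E12.5 cell reached either limit, and the highest E12.5 score was 0.702.

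In high-score cells of both stages Kcnq1ot1 had the highest level of the 5 genes. It stood at 340.6 CPM in E14.5 high-score cells, against 61.2 CPM in other cells, and at 512.8 CPM in E16.5 high-score cells, against 55.8 CPM in other cells. It was annotated in GRCm38 as a 1-exon antisense transcript at chr7:143203458-143296549 on the minus strand. The strand setting of the authors' counting was not given in the sources used here. Whether reads of Kcnq1 on the opposite strand were counted with it was not checked. Abhd18, a gene of the alpha/beta hydrolase family at chr3:40846970-40938138, had 234.4 and 225.7 CPM in high-score cells at E14.5 and E16.5, against 37.3 and 53.6 CPM in other cells. D3Ertd751e lies on the same chromosome at chr3:41742611-41803320 and had 201.1 and 266.1 CPM in high-score cells, against 37.3 and 56.5 CPM in other cells. Gm26699, a lincRNA at chr6:38551531-38554007, had 166.5 and 221.3 CPM in high-score cells, against 31.5 and 51.2 CPM in other cells. Slc25a42, which codes for a mitochondrial carrier of coenzyme A at chr8:70184340-70212305, had 142.0 and 144.9 CPM in high-score cells, against 28.3 and 26.3 CPM in other cells. These levels restate the choice of the cells.

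Each scoring gene was also left out in turn and the same number of cells picked by the other 4. This is a description too, since all 5 genes were put together from these libraries. The gene left out was then 2.70 to 3.54 times higher in the picked cells at E14.5 and 2.38 to 4.85 times higher at E16.5. The top of the E16.5 range was Kcnq1ot1, with 289.0 CPM (258.2 to 322.4) in the picked cells, against 59.6 CPM (57.8 to 61.5) in the others. At E14.5 Kcnq1ot1 had 172.5 CPM (152.7 to 194.1), against 63.8 CPM (62.3 to 65.4). The cells picked in this way shared 131 to 148 of 200 and 74 to 89 of 120 cells with those picked by all 5 genes.

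The name "rich in nuclear RNA" could be checked only in part, since the table holds no position of an RNA in the cell. Of 9 other long RNAs known to stay in the nucleus, Malat1 alone was measured at E14.5, and Malat1 and Mir17hg at E16.5. Malat1, a nuclear RNA linked to splicing bodies, had 1361 CPM in high-score cells and 958.9 CPM in other cells at E14.5 (log2 ratio 0.51). At E16.5 it had 2487 CPM in high-score cells and 2477 CPM in other cells. Mir17hg, host of a microRNA cluster, was lower at E16.5, with 17.6 CPM in high-score cells and 39.0 CPM in other cells. Xist, which coats an inactive X chromosome, had 6.28 and 3.51 CPM in E14.5 and E16.5 high-score cells, against 20.4 and 10.1 CPM in other cells, and was under the measuring limit. The cells are therefore named by their score.

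The germ cell label held by its markers. All 22 germ cell markers in the table had UMIs in high-score cells of both stages, and their summed level was 12716 CPM in E14.5 high-score cells, against 9068 CPM in other cells, and 14310 CPM in E16.5 high-score cells, against 11584 CPM in other cells. Single germ cell markers did not all follow the sum. At E14.5, 8 of 19 measured were higher and 5 lower, where 21.9% and 15.7% of all measured genes were. At E16.5, 2 of 17 were higher and 2 lower, where 15.0% and 11.0% of all measured genes were. Of 19 pregranulosa markers, 6 were at 0 over all E14.5 high-score cells (Nr5a1, Runx1, Irx3, Rspo1, Nr0b1 and Krt8) and 8 over all E16.5 high-score cells, while none was at 0 in other cells. Their summed level was 32.7 and 19.3 CPM in high-score cells, against 96.4 and 38.1 CPM in other cells. The zeros rest on unlike depth, with 1591419 and 1138837 UMIs in high-score cells, against 102622706 and 68682550 in other cells. A zero therefore does not show that a marker was absent. At least 5 pregranulosa markers were found in 1 of 200 and 0 of 120 high-score cells, against 155 of 8875 and 19 of 5243 other cells. Interstitial and endothelial markers summed to 7.54 and 7.02 CPM in high-score cells, against 14.9 and 18.4 CPM in other cells. Blood markers summed to 9.43 and 10.5 CPM, against 14.6 and 126.6 CPM. The median cell of every group had 0 CPM of blood markers, whereas the highest E16.5 other cell had 327154 CPM, so the sum of 126.6 CPM does not describe a typical cell. Only 9 of 17 blood markers and 5 of 16 interstitial and endothelial markers were in the table.

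The high-score cells held less RNA per cell as captured. The score uses values scaled within each cell, so 1 UMI of a scoring gene counts for more in a shallow cell. Scoring cells thinned to 5000 UMIs picked 113 of the same 200 cells at E14.5 and 67 of the same 120 at E16.5. Their median UMIs less those of other cells were then -2822 and -3169.5, where the score as used gave -3263.5 and -3370. At E14.5 the high-score cells had a median of 7770.5 UMIs, with a lowest of 4391 and a highest of 13125, against a median of 11034, a lowest of 4226 and a highest of 36674 in other cells. At E16.5 the median was 9349, the lowest 3898 and the highest 18615 UMIs, against 12719, 4226 and 37964 in other cells. Detected genes had medians of 2485.5 and 2895.5 per high-score cell at E14.5 and E16.5, against 3151 and 3443 in other cells. The fewest were 1998 in the high-score cells of either stage, against 2001 and 2004 in other cells. Cells with fewer genes were missing from the data, so the depth of high-score cells is described only above that bound. After thinning every cell to 5000 UMIs the medians were 1915.5 and 1973 genes in high-score cells, against 1928 and 1954 in other cells. Thinning left out 4 and 7 high-score cells and 7 and 18 other cells that were shallower. Cells over 2 times the median UMIs of their stage numbered 0 and 0 among high-score cells, against 126 and 60 among other cells.

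The high-score cells varied widely in mitochondrial RNA. Cells in which under 1.5% of UMIs were mitochondrially encoded numbered 59 of 200 at E14.5, or 29.5% (23.3% to 36.3%), against 665 of 8875, or 7.49% (6.95% to 8.06%), of other cells. At E16.5 they numbered 42 of 120, or 35.0% (26.5% to 44.2%), against 132 of 5243, or 2.52% (2.11% to 2.98%), of other cells. The limit of 1.5% was set after the data were seen, and 6 and 19 high-score cells lay within 0.25 percentage points of it, against 1056 and 101 other cells. The median share was 2.62% in high-score cells and 2.36% in other cells at E14.5, and 2.31% in high-score cells and 3.12% in other cells at E16.5. The E14.5 direction turned against cells matched on detected genes, which had a median of 2.71%. No cell had a share above 4.991% in the E14.5 library or above 4.999% in the E16.5 library. These results therefore cannot show whether high-score cells of greater share existed. RNA of cytosolic ribosomal proteins had a pooled share of 31.4% in high-score cells and 34.0% in other cells at E14.5, and of 29.9% and 33.4% at E16.5. The part that depth and the mitochondrial share play in the gene differences below was not tested.

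**Figure D1:**
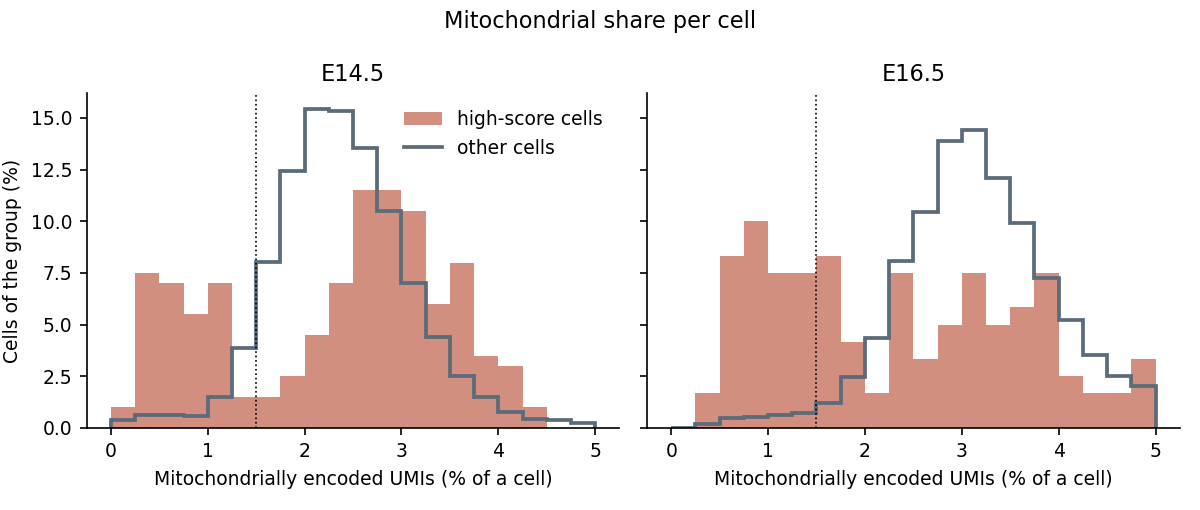
Share of a cell's UMIs that were mitochondrially encoded (horizontal axis, percent) against the percent of cells of the group (vertical axis), for E14.5 (left) and E16.5 (right); filled red steps are high-score cells, the grey outline other cells, and the dotted line marks 1.5%. The high-score cells form a second rise at low shares, with 29.5% of them under 1.5% at E14.5 and 35.0% at E16.5, against 7.49% and 2.52% of other cells.

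At E14.5 the high-score cells had more RNA of most recombination and synaptonemal genes and less of early germ cell genes than the other cells of the library. Of 4551 genes measured, 996 were higher (21.9%) and 715 were lower (15.7%), and the median log2 ratio of all measured genes was 0.13. Of 22 measured recombination genes, 18 were higher and 1, Mnd1, was lower, with a median log2 ratio of 1.13. Of 13 measured synaptonemal and cohesin genes, 11 were higher and 1, Rec8, was lower, with a median of 0.96. All 15 measured pluripotency and early germ cell genes were lower, with a median of -2.31. Against E14.5 cells matched on detected genes, 7 of the 22 recombination genes were higher and none lower, with a median of 0.41, and 3 of the 13 synaptonemal and cohesin genes were higher and 1 was lower, also with a median of 0.41. All 15 early genes were still lower, with a median of -1.42.

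Prdm9, the methyltransferase that marks recombination hotspots, had 259.5 CPM (235.1 to 285.8) in E14.5 high-score cells, against 70.0 CPM (68.4 to 71.6) in other cells, a ratio of 3.71. Meiob, which binds single-stranded DNA during recombination, had 172.2 CPM (152.4 to 193.8), against 37.4 CPM (36.2 to 38.6), a ratio of 4.61. Msh5, which stabilises crossover intermediates, had 157.1 CPM, against 42.1 CPM in other cells. Spo11 itself, the break-forming enzyme, had 89.2 CPM, against 32.0 CPM, and Dmc1, the meiotic recombinase, had 261.4 CPM, against 120.8 CPM. Rad51ap2 had 109.3 CPM, against 27.6 CPM, and Ccdc36, needed for break formation, had 57.2 CPM, against 20.0 CPM. Along the chromosome axes Sycp3 had 1737 CPM in high-score cells, against 665.2 CPM in other cells. Syce3, of the central element, had 627.1 CPM, against 196.3 CPM.

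Of 15 measured meiotic entry genes at E14.5, 8 were higher and 3, Stra8, Rec8 and Zglp1, were lower, where 21.9% and 15.7% of all measured genes were. Beside cells matched on detected genes, 1 was higher and 1 lower. Stra8 had 894.8 CPM (848.9 to 942.5) in high-score cells and 1448 CPM (1441 to 1455) in other cells. Rec8, the meiotic cohesin subunit, had 25.8 CPM, against 202.5 CPM. Wide gaps were found among early genes. Phlda2, an imprinted growth regulator, had 8.80 CPM (4.81 to 14.8) in high-score cells, against 243.4 CPM (240.4 to 246.4) in other cells. Dppa3, an early germ cell and oocyte factor also called Stella, had 40.8 CPM, against 432.3 CPM. Pou5f1, which encodes OCT4, had 18.2 CPM, against 161.7 CPM. Txn1, which codes for thioredoxin, had 10.7 CPM, against 163.4 CPM.

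Metabolic and cell cycle genes of the E14.5 high-score cells were lower or mixed, where 21.9% of all measured genes were higher and 15.7% lower. All 7 measured glycolysis genes were lower, among them Aldoa at 27.7 CPM, against 177.5 CPM, and Gapdh at 242.6 CPM, against 557.6 CPM in other cells. Of 22 measured S-phase genes, 12 were lower, including Mcm2, Mcm3, Mcm4, Mcm6 and Mcm7 of the replicative helicase, and 1, Ccne2, was higher at 185.4 CPM, against 67.5 CPM. Of 22 genes of G2 and mitosis, 6 were higher and 7 lower. Cyclin gene Ccnb1 had 2.51 CPM, against 61.1 CPM, whereas the proliferation marker Mki67 had 93.0 CPM, against 45.7 CPM. Against cells matched on detected genes, 6 of the 7 glycolysis genes were lower and none higher. Of the 22 S-phase genes 10 were then lower and 1 higher, and of the 22 genes of G2 and mitosis 5 were lower and 2 higher.

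At E16.5 the differences from all other cells were fewer than at E14.5, but against cells matched on detected genes they were more. Those matched cells gave 543 genes higher and 364 lower at E16.5, against 195 and 355 at E14.5. Against all other cells, 705 of 4702 measured genes were higher (15.0%) and 519 were lower (11.0%), with a median log2 ratio of 0.05 over all measured genes. Of 23 measured recombination genes, 7 were higher, namely Ccdc36, Mei1, Prdm9, Rad51ap2, Meiob, Hsf2bp and Msh5, and 2 were lower, Psmc3ip and Mnd1. Of 12 measured synaptonemal and cohesin genes, 5 were higher and none lower. Of 9 measured pluripotency genes, 2 were lower, Dppa3 and Rhox5, and none higher. None of the 3 measured glycolysis genes differed by 1.5-fold. Beside E16.5 cells matched on detected genes, 5 of the 23 recombination genes were higher and 1 was lower. Of the 12 synaptonemal and cohesin genes, 4 were then higher and none lower. Of the 9 pluripotency genes, 1 was then higher and none lower, and 1 of the 3 glycolysis genes was higher.

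Stra8 was 2.36 times as high in E16.5 high-score cells, with 631.3 CPM (586.0 to 679.2), against 267.5 CPM (263.6 to 271.4) in other cells. Prdm9 had 317.0 CPM (285.1 to 351.4), against 156.1 CPM (153.2 to 159.1). Dazl, the germ cell RNA-binding protein, had 1594 CPM, against 919.8 CPM, and Smc3, a cohesin core subunit, had 547.0 CPM, against 272.6 CPM. Other meiotic genes, picked out after their values were seen, were not 1.5-fold apart. Sycp1, the transverse filament protein, had 1349 CPM in high-score cells and 1700 CPM in other cells, Syce3 had 836.8 CPM and 1149 CPM, and Spo11 had 138.7 CPM and 177.1 CPM.

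Among genes that earlier results of these data gave as marks of E16.5 cell states, 5 of 15 measured were higher and 5 lower. Of all measured genes 15.0% were higher and 11.0% lower. Against cells matched on detected genes, 4 of the 15 were higher and 5 lower. The values that follow are against all other cells. The higher ones were Prdm9, Pcdh17 and the X-linked Xlr3b, Xlr4a and Xlr4b. The lower ones were Ablim1, Hist1h2ap, Gc, Pet2 and H1f0. H1f0, a linker histone of cells that no longer divide, had 43.9 CPM in high-score cells, against 170.2 CPM in other cells. Ablim1, an actin-binding LIM protein, had 7.02 CPM (3.03 to 13.8), against 49.1 CPM (47.4 to 50.8). Gc, the vitamin D-binding protein, had 75.5 CPM (60.4 to 93.3), against 181.8 CPM (178.6 to 185.0).

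**Figure D2:**
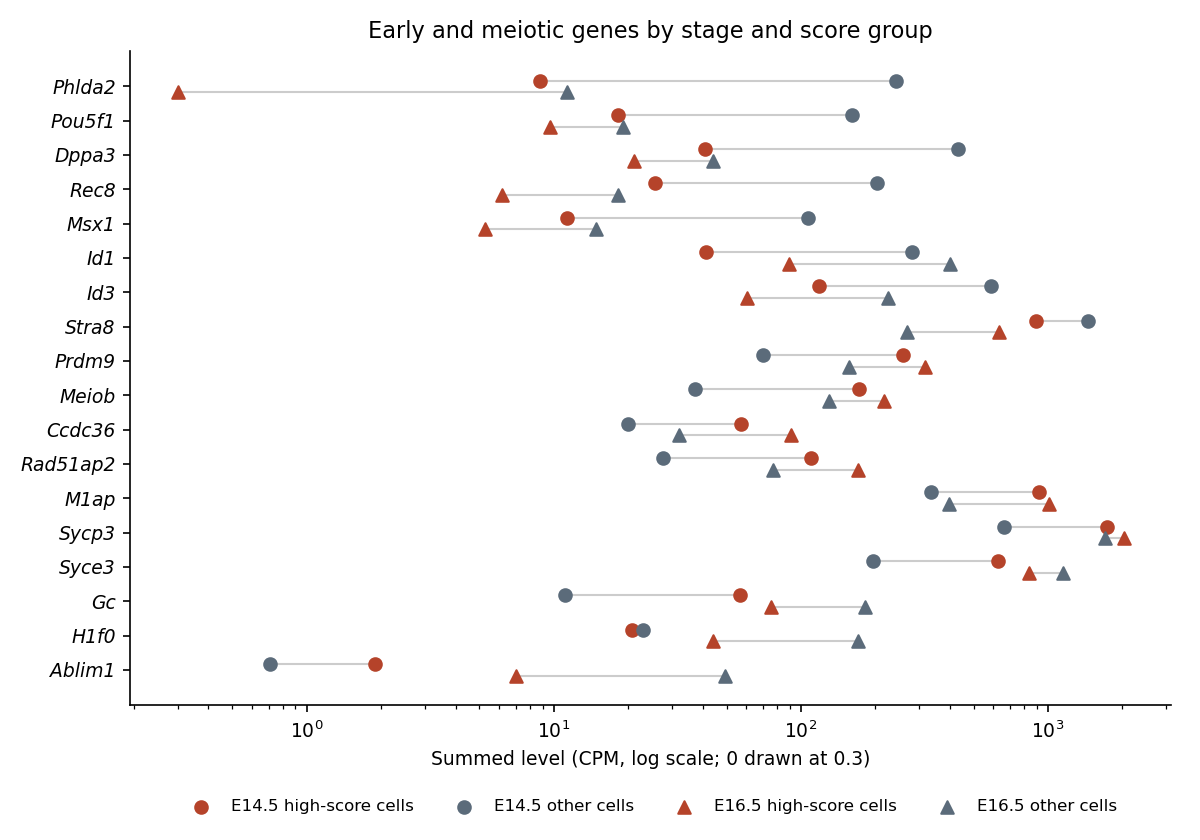
Level of 18 genes in 4 groups of cells (horizontal axis, CPM on a log scale; a level of 0 is drawn at 0.3), with E14.5 as circles and E16.5 as triangles, high-score cells in red and other cells in grey. The red points of the 2 stages lie close together for M1ap, Sycp3, Prdm9 and Meiob. They lie apart for others, among them Phlda2, Rec8, Msx1, Id1, Id3 and Ablim1. Among the grey points, those of E14.5 lie to the right for Phlda2, Pou5f1, Dppa3 and Rec8 and to the left for Prdm9, Meiob and Rad51ap2.

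The comparisons of the 2 stages share no cells. Of 4212 genes measured in both, 385 were higher in both, which is 39.6% of the 973 higher at E14.5 and 58.5% of the 658 higher at E16.5. Over all 4212 genes, 23.1% were higher at E14.5 and 15.6% at E16.5. A further 195 were lower in both, or 37.5% of 520 and 50.1% of 389, where 12.3% and 9.24% of the 4212 genes were lower at E14.5 and E16.5. Only 10 genes were higher at E14.5 and lower at E16.5, and 8 were lower at E14.5 and higher at E16.5. The 5 genes that picked the cells were the same at both stages.

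The genes higher in both by the widest smaller ratio were led by Tnip2, Fyco1, Ccdc36 and M1ap. M1ap, a meiosis gene needed for sperm formation in mice, had 915.5 and 1011 CPM in E14.5 and E16.5 high-score cells, against 335.5 and 396.8 CPM in other cells. Fyco1, an adaptor for autophagosome transport, had 123.2 and 164.2 CPM, against 37.6 and 56.7 CPM. Tnip2, a regulator of NF-kappa-B signalling, had 83.6 and 75.5 CPM, against 28.7 and 24.5 CPM. Ankzf1, Tuft1, Iqsec1, Mtl5, Tc2n, Tecpr2, Fam72a and the antisense transcript Gm15491 completed the 12 of widest ratio.

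Genes lower in both were led by Pttg1 and Id1. Id1, a target of BMP signalling that blocks helix-loop-helix factors, had 41.5 CPM (32.1 to 52.8) and 89.6 CPM (73.0 to 108.7) in high-score cells at E14.5 and E16.5, against 282.1 and 400 CPM in other cells. Its relative Id3 had 118.8 and 60.6 CPM, against 588.0 and 224.7 CPM. Pttg1, the securin that guards sister chromatids, had 20.1 and 9.66 CPM, against 115.2 and 46.6 CPM. Gyg, which primes glycogen synthesis, had 12.6 and 13.2 CPM, against 39.3 and 65.2 CPM. Jund, the only immediate-early gene measured, had 18.9 and 29.9 CPM, against 107.7 and 77.5 CPM. Spint2, Spcs1, Tsc22d1, Map1lc3a, Pigyl, Dpy30 and 4833439L19Rik were the rest of this group of 12. The ratios of both groups of 12 are against all other cells. Ratios of some of these genes against matched cells are given further below.

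**Figure D3:**
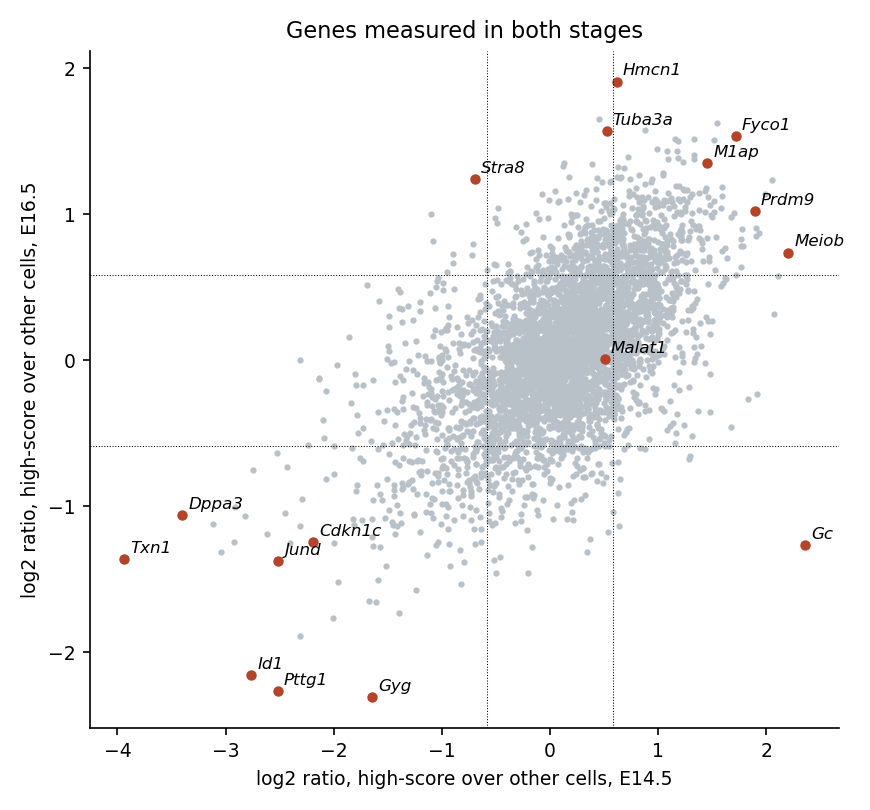
Log2 ratio of high-score over other cells at E14.5 (horizontal axis) and at E16.5 (vertical axis) for the 4212 genes measured in both stages, 1 point per gene, with dotted lines at 1.5-fold. Prdm9, Meiob, Fyco1 and M1ap lie at the upper right and Id1, Pttg1, Gyg and Txn1 at the lower left, while Gc and Stra8 lie in the 2 opposite corners.

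Between the stages the 2 sets of high-score cells differed in fewer genes than the other cells did. Between E16.5 and E14.5 high-score cells, 310 of 4492 measured genes were higher (6.90%) and 153 were lower (3.41%) at E16.5. Between all other cells of the stages, 983 of 4760 genes were higher (20.7%) and 714 were lower (15.0%). Other cells paired 1 to 1 with the high-score cells on detected genes, and so of like number and depth, still differed in 738 of 4681 genes upward (15.8%) and in 614 downward (13.1%). The gap was smaller where the paired cells were also matched on a programme score, the mean natural-log value of 42 synaptonemal and recombination genes less that of 30 early genes. These cells differed in 471 of 4476 genes upward (10.5%) and in 446 downward (9.96%). Both high-score sets were picked by the same 5 genes.

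**Figure D4:**
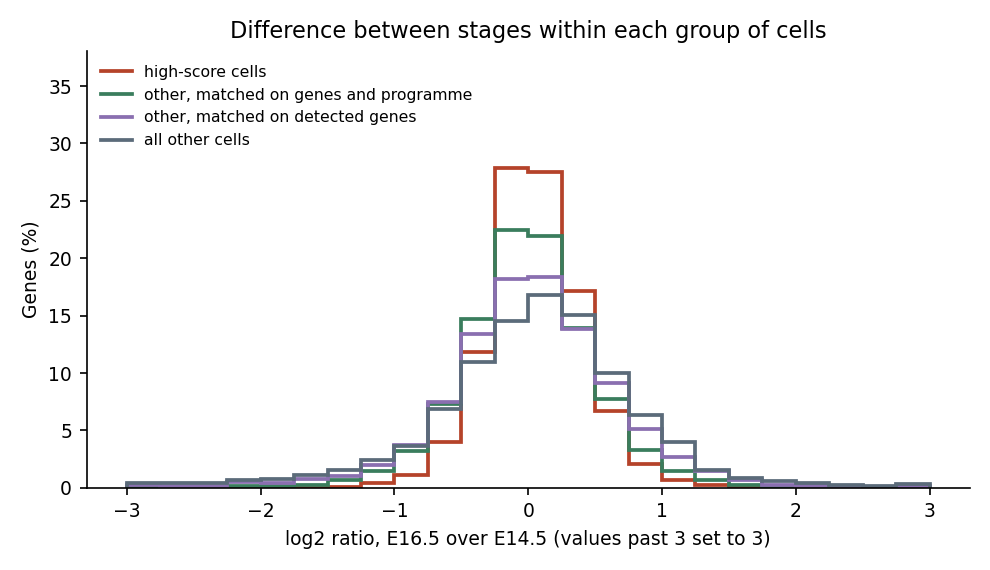
Distribution over genes of the log2 ratio of E16.5 over E14.5 (horizontal axis) as percent of measured genes (vertical axis), for high-score cells (red), other cells matched on detected genes and programme score (green), other cells matched on detected genes (purple) and all other cells (grey). The red steps are the narrowest, with 6.90% of genes higher and 3.41% lower by 1.5-fold or more, against 20.7% and 15.0% in all other cells.

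The programme score showed where the cells stood in their own libraries. At E14.5 it had a median of 0.725 in high-score cells, with a range of 0.0899 to 1.10, against a median of 0.121 and a range of -1.04 to 1.15 in other cells. At E16.5 the median was 0.895 in high-score cells and 0.764 in other cells, and the range was 0.587 to 1.15, against -0.784 to 1.21. The other cells thus covered the full range of the high-score cells at both stages.

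Against E14.5 cells matched on UMIs, 322 genes were higher and 509 were lower. Against E14.5 cells matched on detected genes, 195 genes were higher (4.30% of 4534) and 355 were lower (7.83%). Against E14.5 cells matched on detected genes and programme score, 27 of 4380 genes were higher (0.616%) and 10 were lower (0.228%), with the genes of the programme score left out. Malat1 was among the 27, with 1361 CPM in high-score cells and 903.2 CPM in matched cells, a log2 ratio of 0.59, but its log2 ratio against cells matched on detected genes alone was 0.09. Clcn4 and Actr2 had the widest ratios of the 27, with log2 values of 0.85 and 0.84, and Id1 was among the 10, with 41.5 CPM, against 63.9 CPM in matched cells. These few genes were picked out after their values were seen. The median log2 ratio of glycolysis genes and that of S-phase genes were both 0.03 against the same matched cells, with none of 5 and none of 14 measured genes past 1.5-fold. Differences of Prdm9 and Meiob had log2 values of 0.14 and 0.31 against them, though both genes are part of the programme score and so were matched on. Tnip2, Fyco1 and M1ap, which were higher in both stages against all other cells, had log2 ratios of 0.41, 0.51 and 0.26 against the matched cells. Ccdc36, which is also part of the programme score, had -0.01. Of the genes lower in both stages, Id3 had -0.16. Pttg1 and Jund, under the measuring limit here, had -0.23 and 0.87.

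At E16.5 matching on UMIs gave 709 genes higher and 598 lower, where all other cells gave 705 and 519. Against E16.5 cells matched on detected genes, 543 of 4625 genes were higher (11.7%) and 364 were lower (7.87%). Against cells matched on detected genes and programme score, 358 of 4525 were higher (7.91%) and 225 were lower (4.97%). Stra8 had the widest upward ratio, with 631.3 CPM in high-score cells and 178.9 CPM in matched cells, a log2 ratio of 1.82. Hmcn1, a large extracellular matrix protein, had 61.5 CPM, against 19.6 CPM, and Auts2, a regulator linked to Polycomb complexes, had 416.2 CPM, against 179.2 CPM. Tuba3a, an alpha-tubulin, had 555.8 CPM, against 242.2 CPM, but its near-copy Tuba3b may share reads with it. Malat1 had 2487 CPM, against 1567 CPM in matched cells, a log2 ratio of 0.67, and its log2 ratio was 0.26 against cells matched on detected genes alone. Gc and H1f0 stayed lower against cells matched on detected genes and programme score, with log2 ratios of -1.27 and -1.23. Tnip2, Fyco1, Ccdc36 and M1ap had log2 ratios of 1.25, 1.00, 0.77 and 0.72 against the same cells. Id3 had -0.12, Jund had -0.47, and Pttg1, under the measuring limit here, had -1.32.

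Kcnq1ot1 is known to silence genes around it on the paternal chromosome, so the genes of that domain were set beside it. Of 6 measured at E14.5, 3 were lower and none higher, and of 5 measured at E16.5, 2 were lower and none higher, where 15.7% and 11.0% of all measured genes were lower. Cdkn1c, the cell cycle inhibitor p57, had 36.4 and 57.1 CPM in E14.5 and E16.5 high-score cells, against 166.4 and 135.5 CPM in other cells. Phlda2 at E16.5 had no UMI in high-score cells and 11.3 CPM in other cells, and was at least 4.28-fold lower with 3 counts over the group set as the limit. Cd81, a tetraspanin, had 49.6 and 36.9 CPM, against 86.0 and 58.7 CPM. Nap1l4, a histone chaperone, had 84.2 and 94.0 CPM, against 107.2 and 91.9 CPM, within 1.5-fold at both stages. Against cells matched on detected genes and programme score, the log2 ratio of Cdkn1c was -0.46 at E14.5 and -0.72 at E16.5. The median of the measured domain genes outside the programme score was 0.10 and 0.05. Phlda2 is also an early gene of the programme score, so it was matched on and left out of these medians. The table does not separate the parental alleles.

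Lists that bear on RNA handling and chromatin are read beside all measured genes, of which 21.9% were higher and 15.7% lower at E14.5 and 15.0% and 11.0% at E16.5. Of 33 measured genes with introns known to be held back or with roles in splicing, 5 were higher and none lower at E14.5, with a median log2 ratio of 0.25. At E16.5, 5 of 35 were higher and 1 was lower, with a median of 0.11. The 5 at E14.5 included Srrm2, a scaffold of nuclear speckles, at 884.1 CPM, against 562.3 CPM, and Luc7l2, a splicing factor, at 290.9 CPM, against 172.6 CPM. Beside cells matched on detected genes, 1 of the 33 was higher at E14.5 and 2 of the 35 at E16.5. The 5 higher at E16.5 among all cells were Rbm25, Nktr, Paxbp1, Tra2a and Hnrnpa2b1. Of genes for nuclear export and RNA decay, 2 of 29 were higher and 4 lower at E14.5, and 2 of 27 higher and 1 lower at E16.5. Nup214 of the nuclear pore was higher at both stages. Large chromatin regulators were higher in 6 of 25 at E14.5 and 7 of 27 at E16.5, against 1 and 3 that were lower. Against cells matched on detected genes, none of the 25 was higher at E14.5 and 6 of the 27 at E16.5. Kmt2c, a histone H3 lysine methyltransferase, had 252.6 and 331.0 CPM, against 101.3 and 174.0 CPM.

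Counts of cell stress genes were small, beside all-gene shares of 21.9% higher and 15.7% lower at E14.5 and 15.0% and 11.0% at E16.5. Of 7 measured apoptosis and p53 genes, 2 were higher and 1 lower at E14.5, and 1 was higher and 3 lower at E16.5. Bax, which permeabilises the mitochondrial membrane, had 76.7 and 58.0 CPM in high-score cells, against 208.4 and 107.2 CPM in other cells. The DNA damage kinase Atm had 73.5 and 107.1 CPM, against 43.8 and 62.4 CPM. Of heat shock and unfolded protein genes, 3 of 16 were higher and 3 lower at E14.5, and 1 of 17 was higher and 2 lower at E16.5. Hspa2, a chaperone with a role in meiosis in male mice, was higher at both stages, with 37.1 and 51.8 CPM, against 13.3 and 26.0 CPM. Of mitochondrially encoded genes, 1 of 11 was higher and none lower at E14.5, and none of 12 was higher and 1 lower at E16.5. Of 91 and 93 cytosolic ribosomal protein genes, 3 were lower and none higher at each stage. Beside cells matched on detected genes, none of the 7 apoptosis and p53 genes was higher and 1 lower at E14.5. At E16.5, 1 of the 7 was then higher and 1 lower. With the programme score also matched, the log2 ratio of Bax was -0.11 at E14.5 and 0.01 at E16.5, and that of Atm -0.17 and 0.40.

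**Figure D5:**
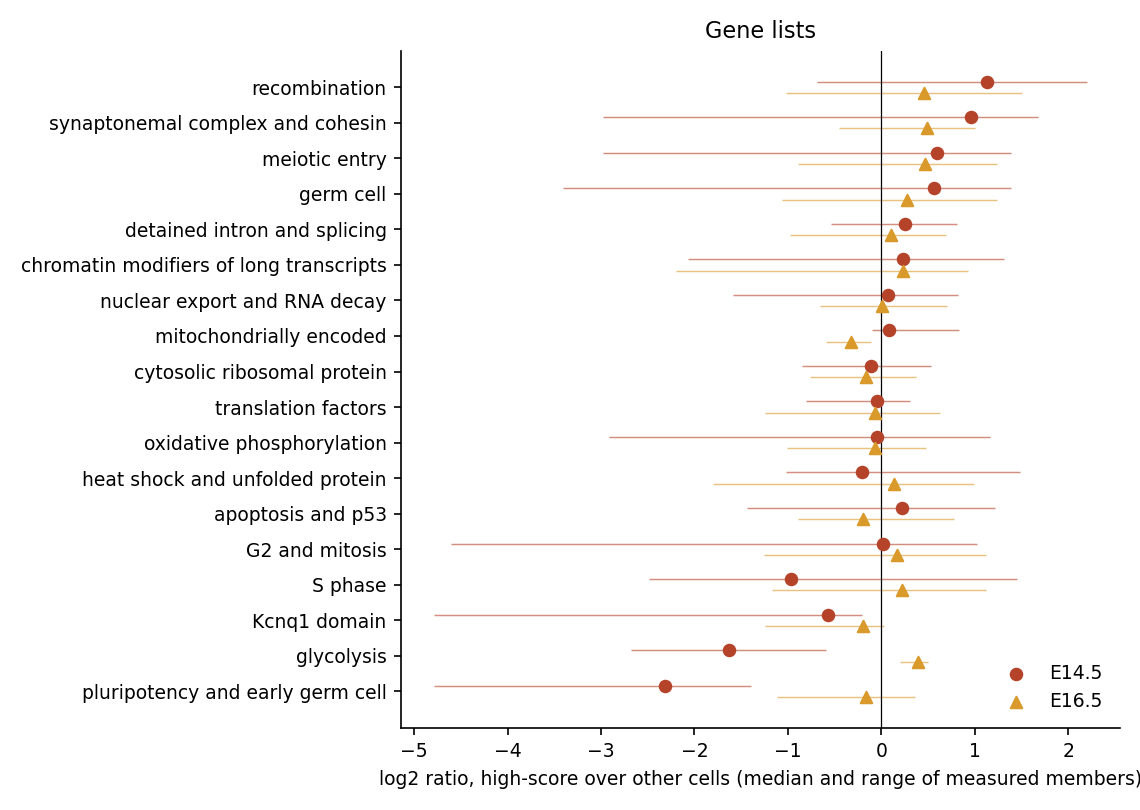
Log2 ratio of high-score over other cells (horizontal axis) for 18 gene lists, with the median of the measured members as a symbol and their lowest to highest value as a line; red circles are E14.5 and yellow triangles E16.5. At E14.5 recombination and synaptonemal genes have medians of 1.13 and 0.96 and early germ cell and glycolysis genes medians of -2.31 and -1.63, while at E16.5 these 4 medians are 0.46, 0.48, -0.17 and 0.40.

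Within the high-score cells, those under 1.5% mitochondrial UMIs differed from the rest. At E14.5 the 59 such cells had a median of 6639 UMIs, against 8253 in the 141 with more, and Malat1 at 2224 CPM, against 1069 CPM. Their median score was 1.11, against 0.956. At E16.5 the 42 such cells had 6882 UMIs, against 10370.5 in the 78 with more, Malat1 at 3856 CPM, against 1966 CPM, and a median score of 1.31, against 1.03. Stra8 was also higher in the cells under 1.5%, at 1203 CPM, against 790.6 CPM at E14.5, and at 908.3 CPM, against 526.0 CPM at E16.5. In other cells under 1.5% at E14.5, Malat1 stood at 899.9 CPM, against 963.5 CPM in those with more, and median UMIs were 11037, against 11033. In other cells under 1.5% at E16.5, Malat1 stood at 3111 CPM, against 2465 CPM, and median UMIs were 8462, against 12799.

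Counted over genes of at least 50 CPM, with mitochondrial genes left out, 351 of 2841 were at least 1.5-fold higher (12.4%) and 144 lower (5.07%) in E14.5 high-score cells under 1.5% than in those with more. At E16.5, 301 of 2958 were higher (10.2%) and 135 lower (4.56%). At E14.5 Id1 and Id3 had the widest upward ratios, and Id3 had 238.6 CPM in cells under 1.5%, against 78.2 CPM in those with more. Lamb2, a laminin chain, had the widest downward ratio, with 7.46 CPM, against 105.1 CPM. At E16.5 Huwe1, Myo9b and Qk were among the 10 genes of widest downward ratio, with 82.9 CPM, against 212.1 CPM for Huwe1. The groups under 1.5% held only 59 and 42 cells. Levels in them rest on few UMIs, most of all that of Lamb2, and no intervals are given for these ratios. Counting error may therefore account for part of these counts.

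Most differences from other cells were found again without the cells under 1.5%, but each subset below is part of the cells that defined those genes. Much of the overlap was therefore fixed in advance, and the part played by the cells under 1.5% was not tested. With those cells left out of both groups, 899 of the 996 genes higher at E14.5 and 682 of the 715 lower were again at least 1.5-fold apart, as were 596 of 705 and 467 of 519 at E16.5. All 996 and 715 kept their direction at E14.5, as did 704 of 705 and all 519 at E16.5. Taken alone, the cells under 1.5% gave 734 of 996 and 485 of 715 at E14.5, and 573 of 705 and 350 of 519 at E16.5. The 100 E14.5 cells of higher score and the 100 of lower score, split at the median, gave 876 and 865 of the 996.

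Genes higher in high-score cells than in all other cells were longer. Lengths of genes that differed from matched cells are not given, so the part played by depth or programme was not tested. At E14.5 the median genomic span was 35.6 kb over higher genes and 12.1 kb over lower genes, against 22.6 kb over all measured genes. At E16.5 it was 33.0 kb over higher genes and 16.2 kb over lower genes, against 23.7 kb over all. Summed exon length followed, with 5.30 kb over higher and 3.11 kb over lower genes at E14.5, and 5.15 kb and 3.63 kb at E16.5. The X chromosome held 4.56% of higher and 5.56% of lower genes at E14.5, against 3.84% of all measured. Genes are not independent replicates, and these medians describe the 2 libraries.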

How the data were processed

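Libraries of 3' ends were made with the version 2 chemistry of the 10x Genomics Chromium system, per the labels' protocols. Per the submitters' processing notes, FastQC, Cell Ranger 2.0.0 and the mouse build mm10 were used. Settings, cell filters and the treatment of doublets were not given in the sources used here. What the authors deposited is a table of natural log values of 1 plus UMIs scaled to 10000 in each cell. Reversing that log gave whole UMI counts, with 100.0% of 68606039 non-zero values within 0.01 of a whole number, so summed UMIs were used. The sums held 1591419 and 1138837 UMIs in E14.5 and E16.5 high-score cells, against 102622706 and 68682550 in other cells. Python 3.11.15 with numpy 2.4.6, scipy 1.17.1 and pandas 2.3.3 was used, and the ratio step was tested on simulated data. No cell was removed and no doublet caller was run.

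The members and gene lists were chosen with earlier results of these data known. Named genes were, among genes measured at both E14.5 and E16.5, the 12 of widest smaller ratio in each direction in both stages and the 5 of widest ratio per stage and direction that were not yet named, and in each list the 3 of highest CPM and the 1 of widest ratio; other list members were named after their values were seen. For matching, each high-score cell took the 3 unused other cells nearest in detected genes, in UMIs, or in detected genes and programme score. Alternatives were another number of cells, another score, scaling, averaging or level limit, and leaving cells out. A sum of 0 was set to 3 counts over the group. Gene positions and lengths came from GENCODE for GRCm38, which is the build mm10. The libraries shared 58 (E12.5 and E14.5), 43 (E12.5 and E16.5) and 72 (E14.5 and E16.5) cell barcodes; 2 E14.5 high-score cells had a barcode of the E16.5 library and 3 E16.5 high-score cells one of the E14.5 library.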

Additional observations from a re-analysis of the deposited data

Results flagged for a closer look

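Gc and Stra8 had opposite directions in the 2 stages against all other cells, and the difference between stages was not tested. The log2 ratio of high-score over other cells for Gc was 2.35 at E14.5 and -1.27 at E16.5, a difference of 3.62 between the stages. For Stra8 it was -0.69 at E14.5 and 1.24 at E16.5, a difference of -1.93. The E14.5 ratios depended on the cells compared. Against cells matched on detected genes, the log2 ratio was 0.89 for Gc and -0.47 for Stra8 at E14.5, and -1.20 and 1.56 at E16.5. With the programme score also matched, it was -0.13 for Gc and -0.11 for Stra8 at E14.5, and -1.27 and 1.82 at E16.5. In high-score cells Gc stood at 75.5 CPM at E16.5 and 56.6 CPM at E14.5, and in other cells at 181.8 CPM at E16.5 and 11.1 CPM at E14.5. Stra8 stood at 631.3 CPM at E16.5 and 894.8 CPM at E14.5 in high-score cells, and at 267.5 CPM at E16.5 and 1448 CPM at E14.5 in other cells.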

How the results depend on the processing

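No paired analysis was possible because there was 1 library per stage. Against 996 genes higher and 715 lower at E14.5, matching on detected genes gave 195 and 355, of which 169 and 333 were among those genes, and matching on UMIs gave 322 higher. Adding the programme score, an alternative chosen after seeing the data, gave 27 higher and 10 lower at E14.5, 358 higher and 225 lower at E16.5, and 917 genes different between stages in other cells, where all other cells gave 1697. A limit of 10 CPM gave 1590 genes lower at E14.5 and 1265 at E16.5. A limit of 50 CPM gave 634 higher and 362 lower at E14.5 and 199 lower at E16.5. Median-of-ratios scaling, which takes the shift of 0.13 in the E14.5 median off all genes, moved the share of higher genes among those called from 58.2% to 43.6% at E14.5 (703 higher, 908 lower) and from 57.6% to 49.3% at E16.5; the limits of 10 and 50 CPM gave 43.9% and 70.9% at E16.5.

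The pooled mitochondrial share of high-score cells less that of other cells was 0.0502 percentage points at E14.5. It was -0.249 against cells matched on detected genes, -0.116 against cells matched on UMIs, -0.38 with 100 high-score cells, 0.163 with 400 and -0.251 with the score without Kcnq1ot1. At E16.5 it was -0.617, and -0.74 against cells matched on detected genes, -1.12 with 60 cells, -0.343 with 240, -0.537 with the score of thinned cells and -0.841 without Kcnq1ot1. The causes were not tested. The other 65 values stayed within 1.5 times the reported value or within counting error. Genes with few UMIs in the smaller groups limit what can be seen, as with 8 UMIs behind Ablim1 at E16.5.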
